A study of Aspergillus nidulans with 12 samples.

Results

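Wild type Aspergillus nidulans (strain A1153) harvested at 48 h was compared with the same strain harvested at 17 h, by sequencing of poly(A) RNA. The members were chosen by the labels alone: 2 cultures at 48 h and 2 cultures at 17 h, 4 of the 12 libraries of the series. All cultures were inoculated from spores and grown in shaken liquid minimal medium that initially held 50 mM glucose and 10 mM nitrate, at 37 °C and 180 rpm. The 48 h cultures were collected 8 h after glucose had run out, and the labels call that harvest a condition of secondary metabolism. The 17 h cultures were collected during growth on glucose, which the labels call primary metabolism. Harvest hour, culture age and glucose supply changed together, so their parts cannot be told apart. The other 8 libraries came from strains labelled rimO deletion (54 h and 17 h) and rimO overexpression (48 h and 17 h), with 2 cultures a group, and served for the spread in the fit and for a closing comparison. The labels describe cultures grown in duplicate and do not say whether both came from a shared batch of spores, so p-values measure the spread between these cultures.

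A. nidulans is a filamentous ascomycete that takes up glucose first and represses the genes for other carbon sources while glucose lasts. When a liquid culture runs out of glucose, growth stops, hyphae recycle their own material, and genes for secondary metabolites and for spore formation can be switched on. The asexual spore pathway runs from the fluffy genes (fluG, flbA to flbE) to the regulators brlA, abaA and wetA, and the mycotoxin sterigmatocystin is made by a cluster of neighbouring genes under the regulator aflR.

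The wild type libraries held 15388572 and 15537639 counts at 48 h, against 17113704 and 12709723 counts at 17 h. Levels below are CPM, counts scaled to a common library size, of each culture after TMM scaling, which sets libraries on a common scale from the bulk of their genes. Across genes, the cultures of a harvest correlated at r = 0.9967 at 48 h and 0.9978 at 17 h (log2 of CPM + 1, a description of the libraries). AN7572, which general knowledge takes for rimO, the counterpart of yeast Rim15p, a kinase that responds to nutrients, had 447 and 437 CPM at 48 h, against 99.8 and 109 CPM at 17 h. Its groups did not overlap, and it rose (log2 change 2.08 ± 0.10, adjusted p = 4.8e-11). No deletion or overexpression applies to wild type, so this level is not a check of a label here. Changes are log2 fold changes of 48 h over 17 h with a standard error (SE), from an edgeR quasi-likelihood fit. A gene is said to have risen or fallen only where its Benjamini-Hochberg adjusted p was under 0.05. In these bulk samples, fewer cells of a type and less RNA per cell cannot be told apart.

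Most genes differed between the harvests: 40.3% of 9670 tested genes were higher and 43.0% were lower at 48 h. Changes of at least 2-fold covered 27.4% (higher) and 27.1% (lower) of tested genes, and changes of at least 4-fold 17.4% and 13.4%. By the fitted change, the largest changes ran mostly upward. At least 32-fold by the fit, 519 genes were higher and 279 lower at 48 h, and at least 1024-fold, 66 were higher and 33 lower. These shares and counts include genes without a count at a harvest (255 of 9670 tested genes), whose counts give only a lower bound. AN2996, for example, had a fitted log2 change of 5.89 but was at least 4.13-fold higher by its bound. The classes were not counted again at the bounds, so how far the upward excess rests on such genes was not tested. With no count in either 17 h culture, 36 genes stood at a mean of at least 10 CPM at 48 h, and 15 genes were in the reverse state. The median change over all tested genes was -0.04, and the 2 quartiles were -1.16 and 1.25, so a count of list members below is to be read against a background in which 83.2% of genes were called. Genes with a symbol in the reference table leaned lower than all tested genes: of 774 tested, 429 fell and 255 rose. Of the 1622 genes not called, 885 had a mean of at least 10 CPM.

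**Figure D1:**
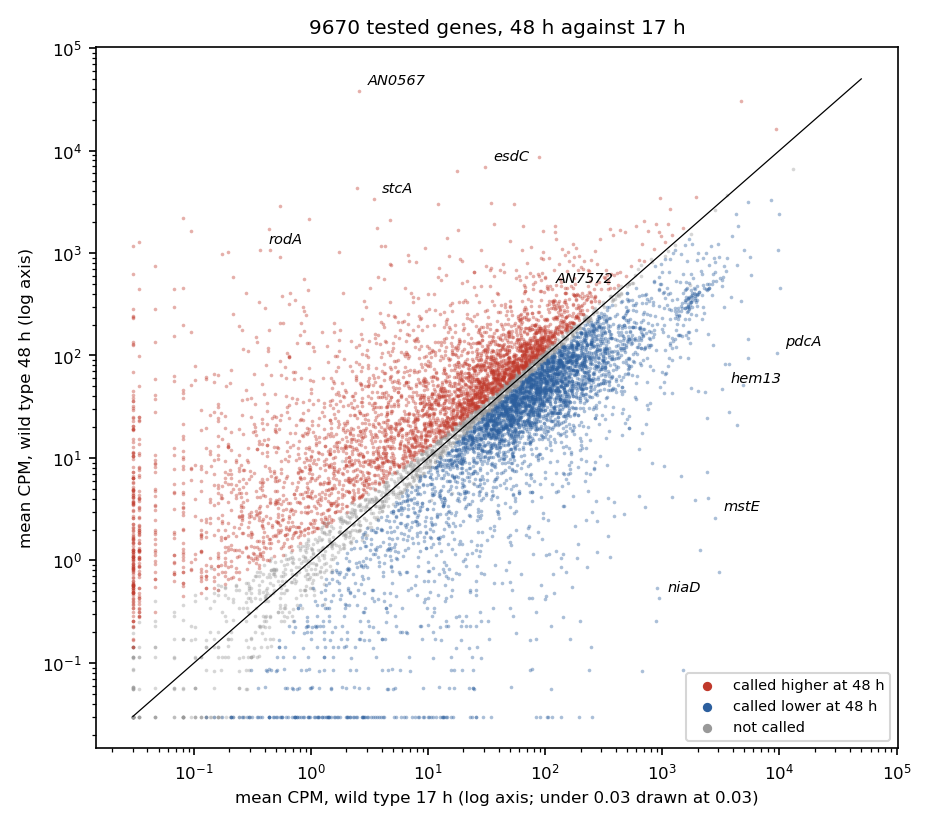
Each point is a tested gene, with its mean CPM over the 2 wild type cultures at 48 h on the vertical axis and at 17 h on the horizontal axis, both log scales. Red points (3893) were called higher at 48 h, blue points (4155) lower, and grey points (1622) were not called; on the diagonal both harvests are equal.

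The counts were also shared out differently. The most abundant genes that together made up 50% of a library's counts numbered 460 and 482 at 48 h, against 334 and 310 at 17 h, while the 10 most abundant genes held 14.4% and 14.3% at 48 h, against 6.74% and 8.42% at 17 h. AN0567, a gene with no name in the reference table, held 4.29% and 4.40% of the counts at 48 h, against 0.000146% and 0.000291% at 17 h. By log2 RPKM, a length-scaled level given by the authors as a value per group, it ranked 4 at 48 h and 8136 at 17 h. AN5245 was among the most abundant genes too but differed within each harvest by more than between the harvest means: it had 12615 and 505 CPM at 48 h, against 1663 and 24704 CPM at 17 h, the groups overlapped, and it was not called (log2 change -1.01 ± 1.05, adjusted p = 0.382).

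**Figure D2:**
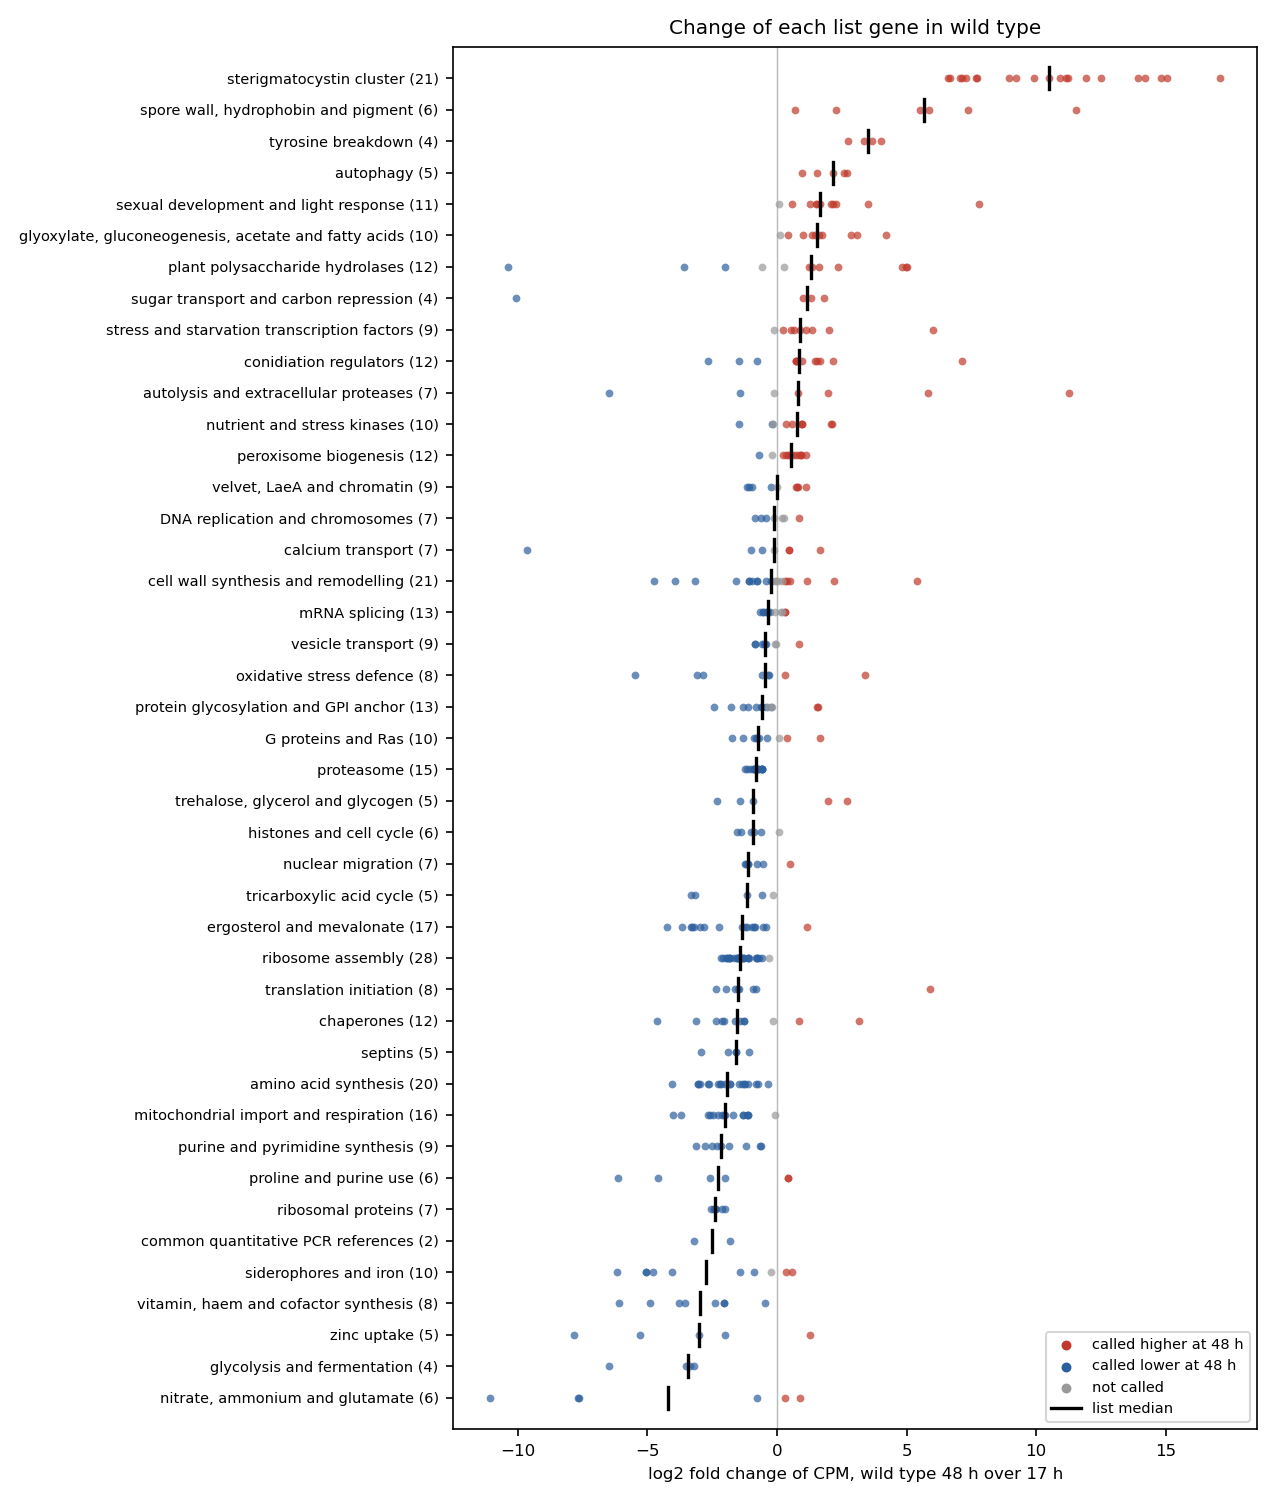
Each row is a gene list with its number of tested genes in brackets, sorted by median, and each point is a gene placed at its log2 fold change of CPM (wild type 48 h over 17 h). Black bars are list medians, from 10.5 for the sterigmatocystin cluster to -4.21 for nitrate, ammonium and glutamate genes.

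Genes of glycolysis and fermentation stood far lower after glucose had run out, while genes for acetate, fatty acids and gluconeogenesis stood higher. All 4 tested glycolysis and fermentation genes fell (median -3.44, against -0.04 over all tested genes), and the list held 0.204% and 0.216% of counts at 48 h, against 2.24% and 2.27% at 17 h. pdcA (AN4888), pyruvate decarboxylase of alcoholic fermentation, had 113 and 101 CPM at 48 h, against 9162 and 9796 CPM at 17 h, the widest change of the list (log2 change -6.47 ± 0.16, adjusted p = 6.57e-14). pgkA (AN1246), phosphoglycerate kinase, had 278 and 311 CPM at 48 h, against 3300.1 and 3469 CPM at 17 h (log2 change -3.52 ± 0.11). aspf22 (AN5746), listed under the name of an A. fumigatus enolase allergen, fell by a like amount (log2 change -3.35 ± 0.09). Of the 4 genes for sugar transport and carbon repression, 3 rose and 1 fell (median 1.17). The gene that fell was mstE (AN5860), a glucose transporter, and it had 2.44 and 2.80 CPM at 48 h, against 2855 and 2813 CPM at 17 h (log2 change -10.07 ± 0.20, adjusted p = 1.24e-14). Another sugar transporter gene, hxt8 (AN5864), rose, with 18.7 and 20.4 CPM at 48 h, against 8.34 and 7.28 CPM at 17 h (log2 change 1.32 ± 0.13). creA (AN6195), the repressor of genes for other carbon sources, and creB (AN3587), a deubiquitinating enzyme of the same pathway, also rose (log2 change 1.02 ± 0.09 and log2 change 1.82 ± 0.11).

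In the list that covers gluconeogenesis, the glyoxylate cycle and the use of acetate and fatty acids, 9 of 10 genes rose (median 1.55). fbp1 (AN5604), named for fructose bisphosphatase, was not called, with 94.8 and 107 CPM at 48 h, against 86.9 and 101 CPM at 17 h (log2 change 0.10 ± 0.15). farB1 (AN1425), named for the regulator of short-chain fatty acid genes, had 136 and 147 CPM at 48 h, against 7.79 and 7.28 CPM at 17 h (log2 change 4.23 ± 0.12, adjusted p = 1.74e-13). mfp (AN7111), the multifunctional enzyme of peroxisomal beta-oxidation, had 308 and 307 CPM at 48 h, against 42.7 and 41.5 CPM at 17 h (log2 change 2.87 ± 0.09). acuF (AN1918), phosphoenolpyruvate carboxykinase, had 427 and 487 CPM at 48 h, against 139 and 157 CPM at 17 h (log2 change 1.63 ± 0.14), and the activator of gluconeogenic genes acuM (AN6293) had 174 and 172 CPM at 48 h, against 51.1 and 51.99 CPM at 17 h (log2 change 1.75 ± 0.08). No pair of groups overlapped among these 4 genes. mcsA (AN6650), methylcitrate synthase of propionate use, and farA (AN7050), the regulator of long-chain fatty acid genes, rose as well (log2 change 1.48 ± 0.08 and log2 change 1.35 ± 0.09). facB (AN0689), the activator of acetate genes, rose by much less, with 157 and 149 CPM at 48 h, against 109.5 and 119 CPM at 17 h (log2 change 0.42 ± 0.12, adjusted p = 0.0043). The peroxisome assembly list moved the same way in small steps: 10 of 12 genes rose, with a median of 0.56 and only pex10 (AN5681) at or above 2-fold (log2 change 1.11 ± 0.15). pex19 (AN4899) fell (log2 change -0.70 ± 0.13). pex14 (AN10610) was not called, with 39.4 and 44.1 CPM at 48 h, against 48.1 and 48.2 CPM at 17 h. In the list named for the tricarboxylic acid cycle, which also holds aclA from outside the cycle, 4 of 5 genes fell. cit1 (AN8275), citrate synthase, had 167 and 149 CPM at 48 h, against 1565 and 1593 CPM at 17 h (log2 change -3.32 ± 0.11), and aclA (AN2435), of ATP citrate lyase, which makes acetyl-CoA in the cytosol, had 143 and 171 CPM at 48 h, against 1417 and 1412 CPM at 17 h (log2 change -3.17 ± 0.11). The aconitase gene acoA (AN5525) was not called, with 917 and 959 CPM at 48 h, against 1039.6 and 1049.9 CPM at 17 h (log2 change -0.16 ± 0.12).

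Nitrate assimilation genes stood far lower at 48 h, and 4 of the 6 genes for nitrate, ammonium and glutamate fell. The 3 genes of the nitrate cluster, which have consecutive identifiers, fell furthest. niiA (AN1007), nitrite reductase, had 20.4 and 21.96 CPM at 48 h, against 4279 and 4429.6 CPM at 17 h (log2 change -7.68 ± 0.13, adjusted p = 4.16e-15). crnA (AN1008), a nitrate transporter, had 1.74 and 1.74 CPM at 48 h, against 339 and 353 CPM at 17 h (log2 change -7.63 ± 0.15). niaD (AN1006), nitrate reductase, had 0.580 and 0.280 CPM at 48 h, against 926 and 956 CPM at 17 h (log2 change -11.08 ± 0.18). Every 48 h value of the 3 genes was below every 17 h value. The regulators of this pathway went the other way: areA (AN8667), the activator of nitrogen genes, had 199 and 205 CPM at 48 h, against 115 and 104 CPM at 17 h (log2 change 0.88 ± 0.11). nirA (AN0098), the nitrate-specific activator, rose by 0.31 ± 0.08. glnA (AN4159), glutamine synthetase, fell by less, with 3220.2 and 3013 CPM at 48 h, against 5336 and 5435 CPM at 17 h (log2 change -0.79 ± 0.19). Among genes for proline and purines, the proline cluster genes prnD (AN1731) (proline oxidase), prnC (AN1733) (pyrroline-5-carboxylate dehydrogenase) and prnB (AN1732) (proline permease) all fell: prnB had 4.64 and 3.02 CPM at 48 h, against 282 and 259 CPM at 17 h (log2 change -6.14 ± 0.16), prnD had 45.2 and 40.6 CPM at 48 h, against 1066 and 1007 CPM at 17 h (log2 change -4.60 ± 0.16), and prnC had 115 and 122 CPM at 48 h, against 733 and 700.2 CPM at 17 h (log2 change -2.60 ± 0.11). azgA (AN8534), a purine transporter, fell as well (log2 change -1.99 ± 0.11), whereas hxA (AN5613) and hxB (AN1637), of purine hydroxylase and its cofactor, rose slightly (log2 change 0.44 ± 0.12 and log2 change 0.41 ± 0.10).

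**Figure D3:**
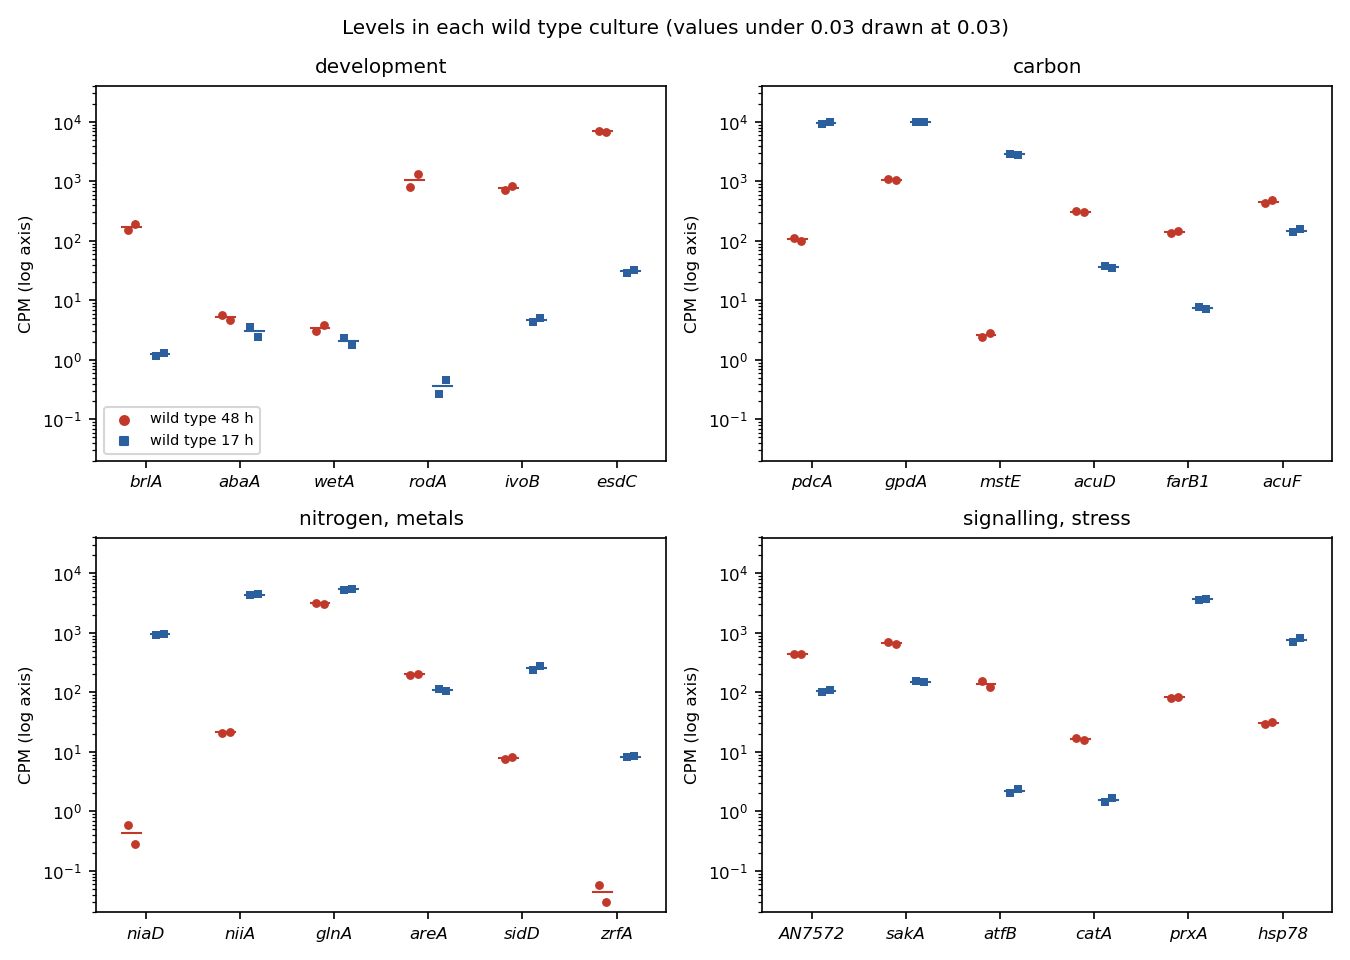
Points are single wild type cultures (48 h in red, 17 h in blue, 2 each) and short lines their means, in CPM on a log axis, with values under 0.03 drawn at 0.03. Among these 24 genes the harvests do not overlap; pdcA, mstE and niaD lie lower and brlA, rodA, esdC and atfB higher at 48 h.

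Metal uptake and cofactor synthesis were mostly lower at 48 h. Among siderophore and iron genes (median -2.73), 7 of 10 fell, 2 rose and 1 was not called. Siderophores are small iron chelators that the fungus secretes or stores. sidD (AN6236), a peptide synthetase for the secreted siderophore, had 7.60 and 8.18 CPM at 48 h, against 240.1 and 278 CPM at 17 h (log2 change -5.03 ± 0.19, adjusted p = 4.03e-12). mirB (AN8540), a siderophore transporter, had 3.83 and 7.51 CPM at 48 h, against 154 and 158 CPM at 17 h (log2 change -4.78 ± 0.26). sidI (AN0609), which acts earlier in the pathway in A. fumigatus, had 0.232 and 0.336 CPM at 48 h, against 19.1 and 22.96 CPM at 17 h (log2 change -6.16 ± 0.27). sidC (AN0607), the peptide synthetase for the stored siderophore, fell less (log2 change -0.89 ± 0.21). The repressor sreA (AN0176) and the transporter gene mirC (AN7485) rose (log2 change 0.34 ± 0.08 and log2 change 0.59 ± 0.11), and the iron-starvation regulator hapX (AN8251) was not called, with 15.8 and 15.01 CPM at 48 h, against 17.9 and 18.3 CPM at 17 h (log2 change -0.23 ± 0.10, adjusted p = 0.0529). Of 5 zinc genes, 4 fell and 1 rose (median -3.02). zrfB (AN3799), a zinc transporter, had 25.3 and 25.1 CPM at 48 h, against 103 and 99.5 CPM at 17 h (log2 change -2.01 ± 0.09). zrfD (AN10468) rose, with 41.8 and 40.7 CPM at 48 h, against 16.1 and 18.5 CPM at 17 h (log2 change 1.26 ± 0.10). The neighbours zrfC (AN1833), in A. fumigatus a zinc transporter of alkaline medium, and aspf2 (AN1832), a secreted zinc-binding protein in A. fumigatus, fell together (log2 change -3.02 ± 0.12 and log2 change -5.30 ± 0.18). zrfA (AN8337) had a total of 1 count over both 48 h cultures, against 8.27 and 8.40 CPM at 17 h, 292-fold higher at 17 h with a 95% counting interval of 51.9-fold to 11590.0-fold. Calcium transport showed no common direction, with 3 of 7 genes up and 3 down. pmcC (AN8399), a calcium pump, had a total of 1 count at 48 h, against 28.9 and 29.8 CPM at 17 h, 1026-fold higher at 17 h with a 95% counting interval of 184-fold to 40594-fold. The vacuolar channel gene yvc1 (AN3155) rose (log2 change 1.64 ± 0.09).

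All 8 vitamin, haem and cofactor genes fell (median -2.97), and their share of counts was 0.0643% and 0.0688% at 48 h, against 0.768% and 0.761% at 17 h. hem13 (AN5130), coproporphyrinogen oxidase of haem synthesis, had 48.7 and 45.99 CPM at 48 h, against 3255 and 3246 CPM at 17 h (log2 change -6.10 ± 0.13, adjusted p = 1.83e-14). bioDA (AN6644), of biotin synthesis, had 9.11 and 8.96 CPM at 48 h, against 269.9 and 263 CPM at 17 h (log2 change -4.88 ± 0.10). thiA (AN3928), of thiamine synthesis, had 320.0 and 359.7 CPM at 48 h, against 4602 and 4739 CPM at 17 h (log2 change -3.78 ± 0.10). The smallest fall was that of riboB (AN0670), of riboflavin synthesis (log2 change -0.45 ± 0.09).

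The machinery of growth was mostly lower at 48 h, and different parts of it fell by different amounts. All 7 tested ribosomal protein genes fell within a narrow range, from -1.99 to -2.55, and held 0.396% and 0.425% of counts at 48 h, against 1.55% and 1.45% at 17 h. rpL3 (AN6202) of the large subunit had 538 and 536 CPM at 48 h, against 2918 and 2875 CPM at 17 h (log2 change -2.43 ± 0.08), and rps23 (AN1345) of the small subunit had 616 and 682 CPM at 48 h, against 2931 and 2754 CPM at 17 h (log2 change -2.13 ± 0.12). Of 28 ribosome assembly genes, 27 fell, with a smaller median of -1.41. cbf5 (AN8851), the pseudouridine synthase of ribosomal RNA, had 135 and 129.7 CPM at 48 h, against 559.8 and 548 CPM at 17 h (log2 change -2.06 ± 0.10). nop58 (AN3167), of the nucleolar methylation complex, had 112 and 109 CPM at 48 h, against 400.0 and 413 CPM at 17 h (log2 change -1.88 ± 0.09). grc3 (AN4599) was not called (log2 change -0.30 ± 0.15, adjusted p = 0.0735). Of 8 translation initiation genes, 7 fell, led by tif1 (AN2932), the helicase eIF4A, with 391 and 387 CPM at 48 h, against 1936 and 2046 CPM at 17 h (log2 change -2.36 ± 0.10). The exception, AN2996, held 0.638 and 0.336 CPM at 48 h and no count at 17 h, at least 4.13-fold higher (taking 3 counts over the group as the floor). The 15 proteasome subunit genes all fell, but only 3 by 2-fold or more (median -0.82, lowest -1.24). pre2 (AN3932), a catalytic subunit, had 91.1 and 91.2 CPM at 48 h, against 221 and 210.2 CPM at 17 h (log2 change -1.24 ± 0.08). rpt1 (AN2917), an ATPase of the regulatory particle, had 161 and 153 CPM at 48 h, against 224 and 239.9 CPM at 17 h (log2 change -0.56 ± 0.07).

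Biosynthetic enzymes fell as well. All 20 amino acid synthesis genes fell (median -1.92), 10 of them at least 4-fold. ilv3 (AN6346), of the branched-chain pathway, had 26.8 and 28.4 CPM at 48 h, against 448 and 457 CPM at 17 h (log2 change -4.03 ± 0.10, adjusted p = 5.88e-14). lysB (AN5206), homoisocitrate dehydrogenase of lysine synthesis, had 30.9 and 34.7 CPM at 48 h, against 269 and 271 CPM at 17 h (log2 change -3.04 ± 0.08). leu2A (AN0912), of leucine synthesis, had 36.9 and 33.6 CPM at 48 h, against 292 and 285 CPM at 17 h (log2 change -3.03 ± 0.09). At the other end, cpa1 (AN2243), carbamoyl phosphate synthetase of the arginine pathway, fell by only 0.35 ± 0.11 on the log2 scale (adjusted p = 0.00989), a call that was lost under RLE scaling (adjusted p = 0.0546). cpcA (AN3675), the transcription factor of the general amino acid control, rose at the same time, with 1652 and 1610.0 CPM at 48 h, against 764 and 749.6 CPM at 17 h (log2 change 1.11 ± 0.08). All 9 tested purine and pyrimidine genes fell (median -2.14), with gua1 (AN5566), GMP synthase, at 22.1 and 18.3 CPM at 48 h, against 176 and 175 CPM at 17 h (log2 change -3.12 ± 0.10). Of 17 ergosterol and mevalonate genes, 16 fell (median -1.35). erg1 (AN11008), squalene epoxidase, had 19.1 and 17.3 CPM at 48 h, against 359 and 336 CPM at 17 h (log2 change -4.26 ± 0.12). erg2 (AN0451), a late step, had 15.2 and 16.2 CPM at 48 h, against 212 and 184 CPM at 17 h (log2 change -3.66 ± 0.10). The mevalonate genes fell unequally. erg13 (AN4923), HMG-CoA synthase, had 40.5 and 53.8 CPM at 48 h, against 374 and 362 CPM at 17 h (log2 change -2.96 ± 0.14), while hmg1 (AN3817), HMG-CoA reductase, and erg8 (AN2311) fell by less (log2 change -0.87 ± 0.10 and log2 change -0.42 ± 0.08). erg4A (AN2684) rose (log2 change 1.16 ± 0.10) while erg4 (AN10648), which carries the like name, fell (log2 change -2.82 ± 0.09), and reads shared between near-identical genes were not examined. Of 16 genes for mitochondrial import and respiration, 15 fell, all by 2-fold or more (median -2.01). cox15 (AN1915), of haem a synthesis, had 15.4 and 14.5 CPM at 48 h, against 247 and 237 CPM at 17 h (log2 change -4.02 ± 0.09). cox5b (AN4525), a cytochrome oxidase subunit, had 129.9 and 136 CPM at 48 h, against 1697 and 1773 CPM at 17 h (log2 change -3.70 ± 0.09). rip1 (AN2306), the Rieske protein of complex III, had 117 and 113 CPM at 48 h, against 691 and 702 CPM at 17 h (log2 change -2.60 ± 0.08). tim21 (AN6034), of the inner membrane translocase, was not called, with 22.6 and 22.8 CPM at 48 h, against 23.9 and 24.3 CPM at 17 h (log2 change -0.08 ± 0.10, adjusted p = 0.438).

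Lists of splicing and vesicle transport moved by small amounts. Among 13 mRNA splicing genes, 8 fell and 2 rose, none by 2-fold, with clf1 (AN1259), a spliceosome assembly factor, at 70.2 and 70.5 CPM at 48 h, against 115 and 104 CPM at 17 h (log2 change -0.64 ± 0.09). Among 9 vesicle transport genes, 6 fell and 1 rose, again none by 2-fold. sec17 (AN6267) was not called, with 97.1 and 100.4 CPM at 48 h, against 105 and 98.2 CPM at 17 h (log2 change -0.04 ± 0.07). Of 13 genes for protein glycosylation and GPI anchors, 9 fell and 2 rose. sec53 (AN10710), phosphomannomutase, fell furthest (log2 change -2.44 ± 0.08), and smp3 (AN2303) and gpi10 (AN1811), mannosyltransferases of the GPI anchor, rose (log2 change 1.58 ± 0.09 and log2 change 1.54 ± 0.10). The DNA replication and chromosome list had no common direction, with 1 of 7 genes up, 3 down and 3 not called. Chaperone genes fell in 9 of 12 cases (median -1.54). hsp78 (AN1163), a mitochondrial disaggregase, had 29.5 and 31.2 CPM at 48 h, against 704 and 805 CPM at 17 h (log2 change -4.64 ± 0.17, adjusted p = 3.12e-12). hsp60 (AN6089), the mitochondrial chaperonin, had 146 and 119 CPM at 48 h, against 1102 and 1215 CPM at 17 h (log2 change -3.13 ± 0.13). The cytosolic hsp90 (AN8269) and hsp70 (AN5129) genes fell by less (log2 change -1.44 ± 0.11 and log2 change -1.29 ± 0.12). In the endoplasmic reticulum, bipA (AN2062) was not called, with 590.2 and 590.3 CPM at 48 h, against 646 and 664 CPM at 17 h, and pdiA (AN7436), a protein disulphide isomerase, rose (log2 change 0.84 ± 0.08).

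Genes of hyphal growth and division were lower, and the cell wall genes were rearranged. All 5 septin genes fell; septins are filament-forming proteins at septa and tips. aspE (AN10595) fell furthest, with 29.5 and 27.5 CPM at 48 h, against 213 and 216 CPM at 17 h (log2 change -2.91 ± 0.10), and aspB (AN6688) least, with 454 and 428 CPM at 48 h, against 917 and 955 CPM at 17 h (log2 change -1.09 ± 0.08). Of 7 nuclear migration genes, 6 fell, including nudA (AN0118), the dynein heavy chain (log2 change -1.11 ± 0.12), and apsA (AN7757), a cortical anchor (log2 change -1.24 ± 0.12). apsB (AN3437) rose (log2 change 0.50 ± 0.09). Of 6 histone and cell cycle genes, 5 fell, among them plkA (AN1560), a polo kinase, with 30.7 and 27.9 CPM at 48 h, against 84.99 and 86.6 CPM at 17 h (log2 change -1.55 ± 0.09), and nimE (AN3648), cyclin B, with 59.2 and 62.9 CPM at 48 h, against 159 and 161 CPM at 17 h (log2 change -1.39 ± 0.10). nimT (AN3941), the phosphatase that activates the mitotic kinase, was not called, with 175 and 168 CPM at 48 h, against 161 and 167 CPM at 17 h (log2 change 0.07 ± 0.10).

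Of 21 cell wall genes, 11 fell, 6 rose and 4 were not called. The genes named for alpha-glucan synthases exchanged places: ags1 (AN3307) had 22.2 and 16.9 CPM at 48 h, against 511 and 529 CPM at 17 h (log2 change -4.73 ± 0.23, adjusted p = 6.71e-11). ags2 (AN5885) had 156 and 162 CPM at 48 h, against 3.39 and 4.11 CPM at 17 h (log2 change 5.42 ± 0.12, adjusted p = 2.02e-14). bgt2 (AN7950), a glucan-modifying enzyme gene, had 172 and 153 CPM at 48 h, against 2439 and 2471 CPM at 17 h (log2 change -3.92 ± 0.12). utr2 (AN4515), which in yeast crosslinks chitin and glucan, had 139 and 136 CPM at 48 h, against 1222 and 1241 CPM at 17 h (log2 change -3.17 ± 0.12). bgt3 (AN4700) rose (log2 change 0.50 ± 0.09). The chitin synthase genes chsA (AN4566) and chsD (AN1046) rose (log2 change 1.17 ± 0.08 and log2 change 2.19 ± 0.20).

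Genes of asexual development stood higher at 48 h, but the central regulators did so very unevenly. Of 12 conidiation regulators, 9 rose and 3 fell. brlA (AN0973), which starts conidiophore formation, had 152 and 191 CPM at 48 h, against 1.15 and 1.31 CPM at 17 h (log2 change 7.13 ± 0.19, adjusted p = 1.55e-13). The next regulators of the pathway held few counts at either harvest: abaA (AN0422) had 5.63 and 4.71 CPM at 48 h, against 3.59 and 2.43 CPM at 17 h (log2 change 0.75 ± 0.24, adjusted p = 0.0106). wetA (AN1937) had 3.02 and 3.81 CPM at 48 h, against 2.30 and 1.77 CPM at 17 h (log2 change 0.72 ± 0.26, adjusted p = 0.0193). Without culture 2 of 17 h neither was called (adjusted p = 0.103 and 0.121). The spore viability regulator vosA (AN1959) had 20.2 and 21.7 CPM at 48 h, against 11.4 and 10.1 CPM at 17 h (log2 change 0.96 ± 0.14). Among upstream genes, fluG (AN4819) fell, with 122 and 121 CPM at 48 h, against 751 and 799 CPM at 17 h (log2 change -2.67 ± 0.11), as did flbD (AN0279) (log2 change -1.47 ± 0.15) and flbB (AN7542) (log2 change -0.78 ± 0.08), whereas flbC (AN2421) (log2 change 1.53 ± 0.14), flbA (AN5893) (log2 change 1.46 ± 0.09) and flbE (AN0721) (log2 change 0.73 ± 0.08) rose. The modifiers stuA (AN5836) and medA (AN6230), which shape the conidiophore, rose to 730.2 and 802 CPM and 378 and 391 CPM at 48 h, against 169 and 176 CPM and 122 and 124 CPM at 17 h.

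All 6 spore wall, hydrophobin and pigment genes rose (median 5.68). rodA (AN8803), the hydrophobin of the spore surface, had 809 and 1332 CPM at 48 h, against 0.271 and 0.467 CPM at 17 h (log2 change 11.53 ± 0.33, adjusted p = 3.03e-13). ivoB (AN0231), a phenol oxidase for the brown conidiophore pigment, had 711 and 836 CPM at 48 h, against 4.41 and 5.04 CPM at 17 h (log2 change 7.37 ± 0.18). ivoA (AN10576), the enzyme before it, had 37.1 and 56.4 CPM at 48 h, against 1.15 and 0.840 CPM at 17 h (log2 change 5.51 ± 0.25). dewA (AN8006), another hydrophobin, had 7.95 and 6.61 CPM at 48 h, against 0.0678 and 0.187 CPM at 17 h, a ratio of 61.7 with a 95% counting interval of 20.9 to 301, since its 17 h cultures held only 3 counts. The green pigment laccase yA (AN6635) changed little, with 15.5 and 18.04 CPM at 48 h, against 10.8 and 9.89 CPM at 17 h (log2 change 0.69 ± 0.14). pksP (AN8209), listed under the A. fumigatus name for the pigment polyketide synthase, had 9.57 and 10.4 CPM at 48 h, against 2.30 and 1.68 CPM at 17 h (log2 change 2.29 ± 0.22). Of the 9 conidiophore and spore markers, 8 were matched by symbol (brlA, abaA, wetA, vosA, rodA, dewA, yA and ivoB), and none of these was at 0 in either group. The marker wA was not matched by symbol, which does not mean that its gene was not measured. Genes listed under a name from another species, such as pksP (AN8209) above, were not searched for it. The summed level of those matched was 1724 and 2414 CPM at 48 h, against 34.0 and 31.2 CPM at 17 h. At 48 h rodA, ivoB and brlA made up most of this sum, while abaA, wetA, vosA and yA each rose by less than 2-fold. The part of spore-forming cells in the other changes was not tested.

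Of 11 genes for sexual development and light response, 10 rose (median 1.67). esdC (AN9121), a gene of early sexual development, had 6940.4 and 6834 CPM at 48 h, against 29.01 and 32.7 CPM at 17 h (log2 change 7.81 ± 0.13, adjusted p = 3.94e-15). The pheromone receptor genes preA (AN7743) and preB (AN2520) had 8.47 and 11.9 CPM and 38.1 and 40.8 CPM at 48 h, against 2.17 and 2.05 CPM and 12.3 and 12.5 CPM at 17 h (log2 change 2.26 ± 0.29 and log2 change 1.67 ± 0.11), and the pheromone precursor ppgA (AN5791) had 26.3 and 27.7 CPM at 48 h, against 7.05 and 5.60 CPM at 17 h (log2 change 2.08 ± 0.16). MAT2 (AN4734), the HMG-box mating gene, had 7.13 and 7.79 CPM at 48 h, against 1.90 and 1.40 CPM at 17 h (log2 change 2.15 ± 0.29). MAT1 (AN2755), the alpha-box gene, had only 34 counts in all at 48 h, against 2 at 17 h, a ratio of 12.3 with a 95% counting interval of 3.16 to 106. fphA (AN9008), the red light receptor, had 196 and 199 CPM at 48 h, against 80.04 and 83.9 CPM at 17 h (log2 change 1.27 ± 0.08). steA (AN2290), a regulator of fruiting bodies, had 305 and 326 CPM at 48 h, against 106 and 109.6 CPM at 17 h (log2 change 1.54 ± 0.08). nsdD (AN3152), another such regulator, was not called, with 118 and 118 CPM at 48 h, against 112 and 111 CPM at 17 h (log2 change 0.07 ± 0.10, adjusted p = 0.483).

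Signalling genes changed in mixed directions. Of 10 nutrient and stress kinase genes, 7 rose and 2 fell, and AN7572 was among the 2 that rose at least 4-fold. The other was sakA (AN1017), the stress MAP kinase of the Hog1 type, with 689 and 639.5 CPM at 48 h, against 153 and 151 CPM at 17 h (log2 change 2.13 ± 0.08, adjusted p = 4.23e-12); mpkC (AN4668), a kinase of the same family, fell, with 36.1 and 31.1 CPM at 48 h, against 94.5 and 90.9 CPM at 17 h (log2 change -1.47 ± 0.10). schA (AN4238), a kinase of the Sch9 type (log2 change 0.96 ± 0.11), tor (AN5982), of the growth kinase TOR (log2 change 0.95 ± 0.08), and pkaC (AN6305), the catalytic subunit of protein kinase A (log2 change 0.58 ± 0.09), all rose. In yeast these 3 act above Rim15p. The AMP kinase subunit gene snf4 (AN10854) was not called, with 53.4 and 58.6 CPM at 48 h, against 59.6 and 64.7 CPM at 17 h (log2 change -0.15 ± 0.08, adjusted p = 0.118). Of 10 genes for G proteins and Ras, 7 fell and 2 rose: gpaB (AN1016), the alpha subunit that feeds the cyclic AMP pathway, rose, with 153 and 157 CPM at 48 h, against 49.7 and 48.9 CPM at 17 h (log2 change 1.65 ± 0.08), while rasA (AN0182) (log2 change -1.32 ± 0.07) and rgsA (AN5755), a regulator of G protein signalling (log2 change -1.75 ± 0.16), fell.

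Of 9 stress and starvation transcription factors, 8 rose, 4 of them at least 2-fold. atfB (AN6849), a bZIP factor, had 154 and 125 CPM at 48 h, against 2.03 and 2.33 CPM at 17 h (log2 change 6.01 ± 0.19, adjusted p = 6.8e-13). skn7 (AN3688), a response regulator of oxidative stress, had 284 and 328 CPM at 48 h, against 75.9 and 74.3 CPM at 17 h (log2 change 2.02 ± 0.08). atfA (AN2911) (log2 change 1.34 ± 0.13) and yap1 (AN7513), the oxidative stress regulator (log2 change 0.90 ± 0.08), rose by less. crzA (AN5726), the calcineurin target, was not called, with 52.4 and 47.3 CPM at 48 h, against 55.7 and 51.1 CPM at 17 h. The defence enzymes did not follow as a group: 6 of 8 fell. prxA (AN8692), a peroxiredoxin, had 81.03 and 84.4 CPM at 48 h, against 3607 and 3769 CPM at 17 h (log2 change -5.48 ± 0.11, adjusted p = 1.62e-14). trr1 (AN3581), thioredoxin reductase, had 36.1 and 42.4 CPM at 48 h, against 336 and 338 CPM at 17 h (log2 change -3.10 ± 0.11). The spore catalase catA (AN8637) had 17.2 and 15.6 CPM at 48 h, against 1.42 and 1.68 CPM at 17 h (log2 change 3.41 ± 0.23) while cat1 (AN9339), also named as a catalase, had 20.6 and 18.5 CPM at 48 h, against 138 and 145 CPM at 17 h (log2 change -2.85 ± 0.20). Among genes for trehalose, glycerol and glycogen, treA (AN9340), a trehalase, had 352 and 243 CPM at 48 h, against 44.7 and 46.4 CPM at 17 h (log2 change 2.71 ± 0.14) and glpV (AN1015) had 1033 and 1080.1 CPM at 48 h, against 259 and 276 CPM at 17 h (log2 change 1.98 ± 0.12), whereas orlA (AN3441), of trehalose synthesis, gldB (AN5563), glycerol dehydrogenase, and ccg9 (AN5021) fell (log2 change -0.92 ± 0.07, log2 change -1.41 ± 0.08 and log2 change -2.30 ± 0.13).

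Genes for recycling and for breaking down other substrates were higher in part. All 5 autophagy genes rose (median 2.17), with atg26 (AN4601) at 179 and 178 CPM at 48 h, against 28.3 and 26.4 CPM at 17 h (log2 change 2.70 ± 0.09), atg15 (AN5919), the vacuolar lipase, at 90.6 and 89.6 CPM at 48 h, against 14.7 and 15.5 CPM at 17 h (log2 change 2.58 ± 0.09), and atg1 (AN1632), the starting kinase, at 142 and 141 CPM at 48 h, against 73.2 and 72.6 CPM at 17 h (log2 change 0.95 ± 0.11). All 4 neighbouring tyrosine breakdown genes rose at low levels (median 3.52), led by hmgX (AN1898) (log2 change 4.00 ± 0.25) and hmgA (AN1897), homogentisate dioxygenase, with 59.3 and 59.3 CPM at 48 h, against 4.41 and 4.95 CPM at 17 h (log2 change 3.67 ± 0.14). Autolysis and protease genes had no common direction, with 4 of 7 up and 2 down. Their summed level was 3050 and 3307 CPM at 48 h, against 229 and 224 CPM at 17 h. Most of this level at 48 h was that of chiB (AN4871). chiB had 2915 and 3152 CPM at 48 h, against 52.6 and 55.6 CPM at 17 h (log2 change 5.81 ± 0.12). dppIV (AN6438), a dipeptidyl peptidase, rose (log2 change 1.97 ± 0.15), dppV (AN2572) was not called, with 8.12 and 8.79 CPM at 48 h, against 9.35 and 9.15 CPM at 17 h, and sxa2 (AN2555) fell, with 1.28 and 1.01 CPM at 48 h, against 103 and 101 CPM at 17 h (log2 change -6.47 ± 0.22). mep20 (AN7962) had 13.2 and 27.5 CPM at 48 h and no count at 17 h, at least 173-fold higher. Of 14 genes for plant polysaccharide hydrolases and their regulator, 12 passed the filter on low counts, 7 rose and 3 fell. xlnR (AN7610), the activator of xylanase and cellulase genes, rose, with 72.7 and 73.1 CPM at 48 h, against 29.8 and 26.5 CPM at 17 h (log2 change 1.37 ± 0.11). aguA (AN9286), alpha-glucuronidase, rose (log2 change 2.37 ± 0.14). xlnD (AN2359), beta-xylosidase, fell, with 1.68 and 1.40 CPM at 48 h, against 17.96 and 19.2 CPM at 17 h (log2 change -3.58 ± 0.22). pmeA (AN3390), a pectin methylesterase, had no count at 48 h, against 11.2 and 10.8 CPM at 17 h, at least 129-fold lower at 48 h.

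The sterigmatocystin cluster carried the highest list median, and its 21 genes held 2.23% and 1.64% of all counts at 48 h, against 0.00310% and 0.00286% at 17 h. All 21 rose, at least 4-fold each, and the median of 10.5 was the same with the 3 genes that had no count at 17 h set at their bounds. stcA (AN7825), the polyketide synthase, had 4004 and 2753 CPM at 48 h, against 3.93 and 2.89 CPM at 17 h (log2 change 9.92 ± 0.27, adjusted p = 1.41e-13), and aflR (AN7820) had 214 and 179 CPM at 48 h, against 0.0678 and 0.0933 CPM at 17 h, a ratio of 2501 with a 95% counting interval of 692 to 20658 on 2 counts at 17 h. All 21 genes were higher in culture 1 than in culture 2 at 48 h, by a median of 1.35-fold. Of the 6 spore wall and pigment genes, 5 were higher in culture 2, rodA among them. The conidiation regulators were mixed: 5 of 12 were higher in culture 1, brlA was higher in culture 2, and the median log2 ratio of culture 1 to culture 2 was -0.03. Among all tested genes with counts in both, 4769 of 9412 were higher in culture 1 at 48 h. Genes that act on secondary metabolism from outside the cluster moved far less. laeA (AN0807), a methyltransferase-like regulator, had 50.2 and 51.3 CPM at 48 h, against 23.9 and 22.96 CPM at 17 h (log2 change 1.11 ± 0.09). Its partner veA (AN1052) had 398 and 387 CPM at 48 h, against 229 and 226 CPM at 17 h (log2 change 0.79 ± 0.08). velB (AN0363), the other velvet protein, had 24.2 and 23.4 CPM at 48 h, against 53.3 and 53.95 CPM at 17 h (log2 change -1.17 ± 0.09). The histone deacetylase genes rpdA (AN4493) and hosA (AN3806) fell (log2 change -1.07 ± 0.07 and log2 change -0.97 ± 0.09). The acetyltransferase gene gcnE (AN3621) rose (log2 change 0.81 ± 0.10). rsmA (AN4562), a bZIP regulator of secondary metabolism, was not called, with 21.2 and 19.996 CPM at 48 h, against 20.3 and 21.1 CPM at 17 h (log2 change -0.01 ± 0.12, adjusted p = 0.967).

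Some neighbouring genes moved together. A stretch was at least 5 neighbouring tested genes in the reference gene order, each called and at least 8-fold changed in the same direction by the fit. Genes below the filter were passed over, so untested genes may lie inside a stretch. There were 16 stretches upward with 123 genes and 6 downward with 37 genes. Among all tested genes, 1116 (11.5%) were so much higher and 649 (6.71%) so much lower. Genes with no count at 1 of the harvests entered by their fitted change. AN11196, which ends a stretch, was at least 7.52-fold higher by its bound, which is below 8-fold. In the stretch AN0028 to AN0019 (8 genes), the median log2 change was 8.38, or 5.04 with 5 genes set at their bounds. The longest ran from AN7804 to AN7828 with 27 genes, which include the sterigmatocystin list, and its summed level was 22306 and 16057 CPM at 48 h, against 37.8 and 35.9 CPM at 17 h. The next upward stretch, AN8467 to AN8477 (10 genes), had 132 and 149.9 CPM at 48 h, against 3.66 and 2.80 CPM at 17 h. A 6-gene stretch from AN4829 to AN4825 reached 1713 and 1972 CPM at 48 h, against 5.63 and 7.001 CPM at 17 h, and AN7270 to AN7264 (7 genes) reached 846 and 807 CPM, against 2.10 and 2.43 CPM. Downward, AN3284 to AN10402 (10 genes) had 2.49 and 2.91 CPM at 48 h, against 214 and 214 CPM at 17 h, and AN3348 to AN3344 (5 genes) had 13.2 and 13.8 CPM, against 728 and 707 CPM. The stretches AN7881 to AN7887 and AN7874 to AN7879, with 6 genes each, lie close together and also fell. The reference table gives most of these genes no name, so no product is assigned to the stretches beyond the sterigmatocystin cluster.

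**Figure D4:**
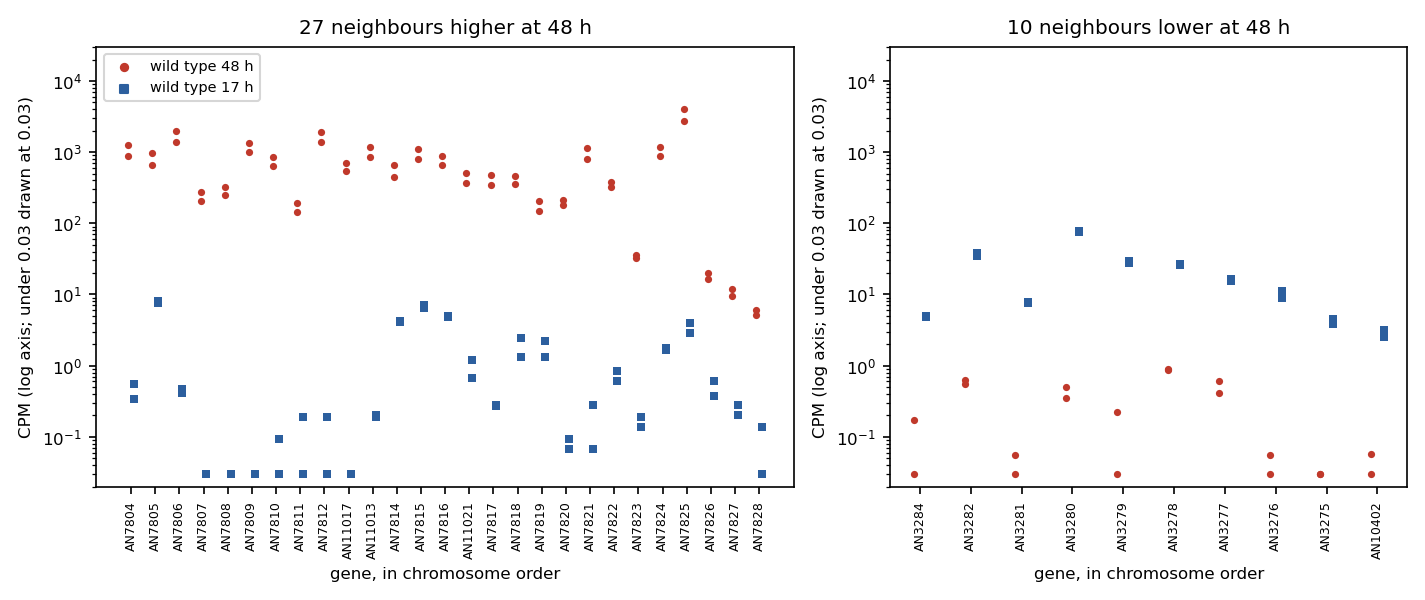
Levels of neighbouring tested genes in chromosome order (untested genes passed over), as CPM on a log axis for each wild type culture (48 h in red, 17 h in blue), with values under 0.03 drawn at 0.03. Left, 27 neighbours that were all higher at 48 h; right, 10 neighbours that were all lower.

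Genes often used as references in quantitative PCR were not level across the harvests. act1 (AN6542), actin, had 823 and 796 CPM at 48 h, against 2807 and 2829.9 CPM at 17 h (log2 change -1.80 ± 0.09, adjusted p = 5.22e-11). gpdA (AN8041), glyceraldehyde-3-phosphate dehydrogenase, had 1074 and 1069 CPM at 48 h, against 9749.5 and 9803 CPM at 17 h (log2 change -3.19 ± 0.10, adjusted p = 6.14e-13). Another scaling shifted the median gene by 0.11 (RLE) and 0.19 (upper quartile) on the log2 scale, less than either change. In the authors' log2 RPKM, act1 stood at 9.24 at 48 h, against 10.11 at 17 h, and gpdA at 10.13, against 12.95. Both were lower at 48 h there too, but by less than in the fit, and the reason was not tested.

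The late-minus-early change of wild type differed from that of the strain labelled rimO deletion for 66.8% of tested genes and from that of the strain labelled rimO overexpression for 28.9% (interaction terms of the same fit, adjusted p under 0.05). The 2 comparisons share the wild type cultures. The labels place the late harvest of every strain 8 h after glucose had run out. For the strain labelled deletion this was at 54 h, so strain and culture age cannot be told apart there. Libraries labelled deletion still held 51.6 and 48.3 CPM of AN7572 at 54 h, against 60.5 and 67.4 CPM at 17 h. In those labelled overexpression AN7572 stood at 322 and 357 CPM at 48 h, against 588 and 504 CPM at 17 h. Both of those 48 h libraries lay below both wild type libraries of 48 h (447 and 437 CPM), which goes against their label, and both of the 17 h libraries lay above those of wild type (99.8 and 109 CPM). AN7572 changed by -0.36 in the strain labelled deletion and -0.69 in the strain labelled overexpression, and both differences passed the test (wild type minus deletion 2.44 ± 0.14, adjusted p = 1.92e-09; wild type minus overexpression 2.77 ± 0.13, adjusted p = 6.63e-09).

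Against the strain labelled deletion, 346 genes (3.58% of tested genes) moved at least 2-fold in opposite directions with the difference past the test, and against the strain labelled overexpression 45 genes (0.465%). Several groups that moved in wild type changed by less or in the other direction in the strain labelled deletion. The median change of the 21 sterigmatocystin genes was 10.5 in wild type, 2.59 in the strain labelled deletion and 9.20 in the strain labelled overexpression, and 17 of the 21 differed from the strain labelled deletion, against 3 from the strain labelled overexpression. For stcA the change was 9.92 in wild type and -0.37 in the strain labelled deletion (difference 10.29 ± 0.50, adjusted p = 3.84e-10). brlA changed by 7.13 in wild type, 1.59 in the strain labelled deletion and 7.02 in the strain labelled overexpression, and rodA by 11.53, 0.93 and 13.07. All 6 spore wall and pigment genes differed from the strain labelled deletion. ags1 and ags2, which moved by -4.73 and 5.42 in wild type, moved by -0.58 and 0.36 in the strain labelled deletion. All 10 siderophore and iron genes differed from the strain labelled deletion and 9 from the strain labelled overexpression, with list medians of -2.73 in wild type, 2.04 in the strain labelled deletion and 0.41 in the strain labelled overexpression. Ribosomal protein genes were close in all 3, with medians of -2.40, -2.50 and -2.07, and 3 of 7 differed from each other strain. The 4 glycolysis and fermentation genes all differed from the strain labelled deletion, with medians of -3.44 in wild type, -2.47 in the strain labelled deletion and -3.42 in the strain labelled overexpression.

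**Figure D5:**
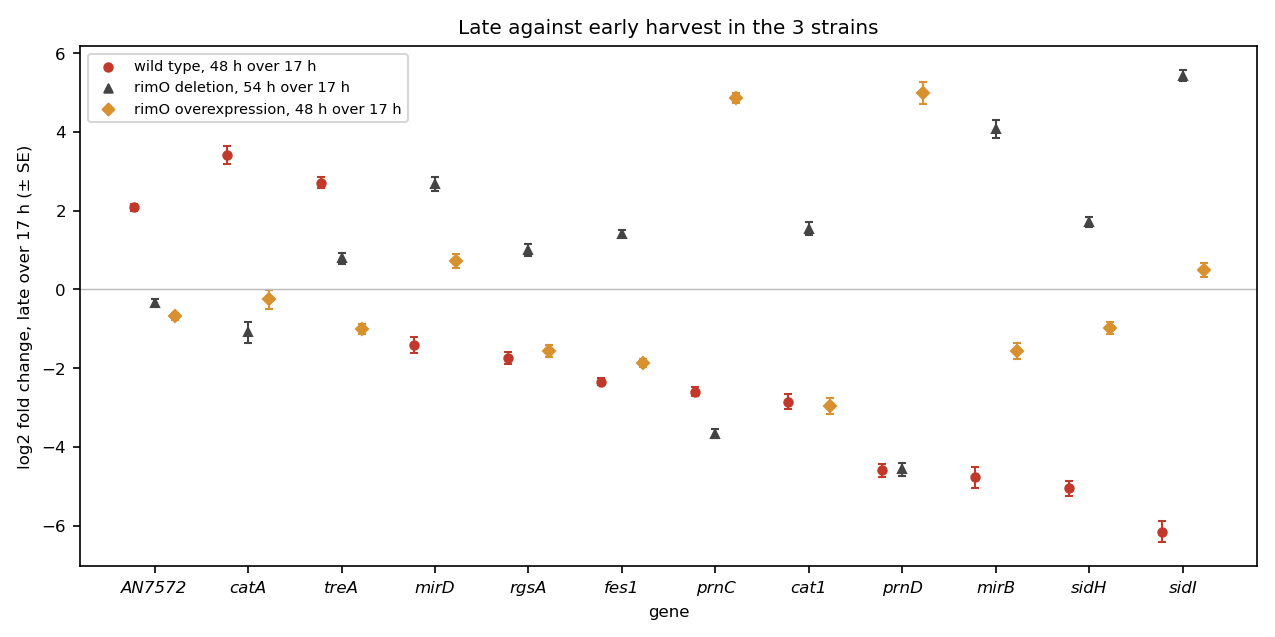
Log2 fold change of the late over the 17 h harvest (± SE) in wild type (red), the strain labelled rimO deletion (dark grey, 54 h over 17 h) and the strain labelled rimO overexpression (orange), for AN7572 and the 11 list genes that moved at least 2-fold in opposite directions in wild type and another strain. sidI lies at -6.16 in wild type and 5.42 in the strain labelled deletion, and prnD at -4.60 in wild type and 4.98 in the strain labelled overexpression.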

How the data were processed

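Poly(A) RNA of 12 libraries was sequenced, and the 4 wild type libraries are described here. The deposited counts are whole reads per gene and library. Trimmomatic, BWA and HTSeq, and also edgeR and limma, are named without a version in the notes on processing by the submitters; genome build and strandedness are not given in the sources used here. The authors' log2 RPKM values, 1 per group, served only for ranks and for the few levels printed as such. Of 10727 table entries, 15 identical repeats and 31 upstream open reading frames (0.000199% of counts) were left out, leaving 10681 genes, of which 9670 passed filterByExpr and 1011 did not.

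All 12 libraries, in 6 groups, entered a single quasi-likelihood model in edgeR 4.0.16 under R 4.3.3, with TMM scaling and p-values adjusted over all tested genes. The SE divides the size of a change by the root of its F value and can be too small for genes with few counts. The biological coefficient of variation was 8.20%, with 6 residual and 7.73 prior degrees of freedom. The steps were tested on simulated data in which most genes were level between groups. That test cannot show how scaling behaves where most genes change. TMM takes most genes as level between libraries, while most were called here, so other scalings were tried. Floors are 3 counts over a group, and floors and intervals (95%, Clopper-Pearson on the share of counts) cover counting error only.

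The 43 lists overlap, and members and lists were chosen with earlier results of these data known. Genes named were AN7572, the 10 highest and 10 lowest changes (mean CPM of 10 or more), for each list at most 6 called genes and its genes not called where these were 3 or fewer, the 5 largest gains and losses in CPM, fixed regulators, genes that bound a run, and PCR references, with some left out for length. Symbols come from the RefSeq gene table (ASM1142v1), used for names and gene order only; stcA, aflR, pdcA, acuD, chiB, mstE, prxA and rimO come from general knowledge. No sequence was used here, promoter motifs were not analysed here, and overlapping or near-identical genes could share reads. Alternatives were upper-quartile or RLE scaling, other filters, limma-voom (limma 3.58.1), DESeq2 1.42.0, a replicate block, only the groups compared, a stricter threshold, and leaving out each library. Libraries of the other strains were left out only for the differences from those strains.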

Additional observations from a re-analysis of the deposited data

Results flagged for a closer look

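The late-minus-early change of wild type differed from that of the strain labelled rimO deletion for 6458 genes, 3169 with the more positive change in wild type and 3289 with the more negative. Against the strain labelled rimO overexpression it differed for 2792 genes, 1533 and 1259 in the same order. Opposite changes of at least 2-fold, with the difference itself past the test, were found for 346 genes against the strain labelled deletion (3.58% of tested genes; 48 higher and 298 lower in wild type at 48 h) and for 45 genes against the strain labelled overexpression (0.465%; 30 higher and 15 lower). Late harvests were 8 h after glucose had run out in every strain, but their hour differed by 6 h between wild type and the strain labelled deletion. The part of the hour in these differences was not tested.

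Among the 418 list genes tested, 8 were in such opposite states against the strain labelled deletion. The differences (change in wild type minus change in the strain labelled deletion, log2) were -11.58 ± 0.28 for sidI, -8.85 ± 0.34 for mirB, -6.76 ± 0.23 for sidH and -4.08 ± 0.28 for mirD, all siderophore genes that fell in wild type and rose in the strain labelled deletion. The differences were -4.40 ± 0.26 for cat1 and 4.50 ± 0.36 for catA, whose directions were exchanged between the strains. They were -3.75 ± 0.14 for fes1, a chaperone cofactor, and -2.75 ± 0.22 for rgsA. Against the strain labelled overexpression, 3 list genes were in opposite states, with differences of -9.58 ± 0.30 for prnD, -7.45 ± 0.17 for prnC and 3.71 ± 0.19 for treA. AN7572 differed by 2.44 against the strain labelled deletion and by 2.77 against the strain labelled overexpression. Adjusted p over all tested genes was at most 7.21e-08 for these list genes, from edgeR. Groups of 2 cultures were too small for a check of samples far from the rest.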

How the results depend on the processing

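Of the genes named with a change, 184 were called in the reported fit and 182 to 185 under the alternatives. Counts of higher (3893) and lower (4155) genes were 3552 to 4330 and 3728 to 4181 over the alternatives at the same threshold, and every count stayed within 1.5 times the reported one, apart from the difference against the strain labelled overexpression, which held 2792 genes and 1808 at an adjusted p under 0.01. The alternatives for the counts of higher and lower genes include fits with each wild type library left out in turn. There the lone culture of a group is assumed to vary like the other groups. Another scaling moved the median gene by 0.111 (RLE) or 0.194 (upper quartile) on the log2 scale, and the share of calls that were higher was 48.4% with TMM, 51.6% with RLE and 53.7% with upper-quartile scaling. The number of lists with a median above 0 was 13 of 43, and 13 to 16 under the alternatives. It is to be read beside the genes with a symbol, of which 429 of 774 tested fell and 255 rose. The medians that changed sign were those of the velvet list (-0.00566, against 0.105 with RLE and 0.188 with upper quartile), the calcium list (-0.130, against 0.0641 with upper quartile) and the DNA replication list (-0.128, against 0.0667).

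Changes of sign were found only among genes that were not called. With upper-quartile scaling the log2 change was 0.0463 for snf4, 0.0443 for bipA, 0.0645 for dppV, 0.0381 for acoA, 0.188 for rsmA, 0.0937 for crzA, 0.110 for tim21 and 0.150 for sec17. With RLE scaling it was 0.105 for rsmA, 0.0109 for crzA, 0.0264 for tim21 and 0.0669 for sec17. DESeq2 gave 0.105, 0.0118, 0.0264 and 0.0666 for these 4 genes in the same order. With only the 2 groups compared it was 0.0916 for rsmA, 0.0128 for tim21 and 0.0527 for sec17, and with at least 5 CPM in 2 libraries it was 0.0203 for rsmA. With each wild type library left out in turn, the changes ran from -0.206 to 0.0363 for snf4, -0.149 to 0.0449 for dppV, -0.033 to 0.143 for rsmA, -0.00595 to 0.307 for fbp1, -0.164 to 0.078 for crzA, -0.097 to 0.0418 for tim21 and -0.0964 to 0.0986 for sec17. AN5245 ran from -4.60, without culture 1 of 48 h, to 1.98, without culture 2 of 17 h, and in the first case it was called (adjusted p = 0.00143, edgeR). Calls were lost for abaA (0.52 without culture 2 of 17 h), wetA (0.56 without that culture, 0.65 without culture 2 of 48 h) and cpa1 (-0.23 with RLE, -0.15 with upper quartile, -0.27 without culture 1 of 17 h, -0.10 without culture 2 of 48 h). An adjusted p under 0.01 also ended the calls of abaA and wetA. Calls were gained for nsdD (0.27 with upper quartile), nimT (0.26) and grc3 (-0.46 without culture 1 of 17 h), and for nsdD and nimT with only the 2 groups compared (0.17 and 0.16). The cause was not tested.

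The labels do not link culture numbers across harvests, and same-numbered libraries deviated from their group means with a correlation of -0.206 over 9670 genes. A replicate block gave 3869 higher and 4131 lower genes, 6362 genes for the difference against the strain labelled deletion and 2680 for that against the strain labelled overexpression. Crossing the numbers of 48 h, an alternative chosen after seeing the data, gave 3867, 4133, 6350 and 2649. Promoter motifs, planned as a further choice, were not analysed here. Genes with no count in a group have only bounds, and ratios for genes with 1 to 3 counts have wide counting intervals, and 2 cultures a group limit the precision of every change.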

Other observations

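Many of the largest changes belonged to genes without a name in the reference table, given here as values. AN6401 had 2119.9 and 2296 CPM at 48 h, against 0.0678 and 0.0933 CPM at 17 h, on 2 counts in all at 17 h, a ratio of 28139 with a 95% counting interval of 7789 to 232359. AN8890 had 222 and 251 CPM at 48 h and AN9178 228 and 235 CPM, both with no count at 17 h, at least 2008-fold and 1965-fold higher. In the other direction, AN1549 had 0.696 and 0.840 CPM at 48 h, against 3074 and 2989.9 CPM at 17 h (log2 change -11.93 ± 0.20), AN2578 had 0.174 and 0.336 CPM at 48 h, against 884 and 880.4 CPM at 17 h (log2 change -11.70 ± 0.20), and AN4127 held 3 counts in all at 48 h, against 1547 and 1433 CPM at 17 h. AN7278, AN7053 and AN3396 had no count at 48 h, against 137 and 135, 115 and 112 and 106 and 104 CPM at 17 h, at least 1588-fold, 1328-fold and 1232-fold lower at 48 h.

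The following genes were chosen after their values were seen, as being among the 10 highest per length at either harvest in the authors' deposited log2 RPKM. AN11787 ranked 1 at both harvests (15.8 at 48 h, 13.81 at 17 h) and had 28074 and 32226 CPM at 48 h, against 4507 and 4907 CPM at 17 h (log2 change 2.68 ± 0.14). AN8781 ranked 5 at 48 h and had 6083 and 6497 CPM at 48 h, against 17.4 and 18.02 CPM at 17 h (log2 change 8.48 ± 0.20), and AN8483 ranked 10 and had 2807 and 2905 CPM at 48 h, against 0.610 and 0.467 CPM at 17 h (log2 change 12.32 ± 0.27). cyn1 (AN7331), named for cyanate hydratase, ranked 9 at 48 h and had 1411 and 1558 CPM at 48 h, against 371 and 391.5 CPM at 17 h (log2 change 1.96 ± 0.09). AN8009, which held the most counts of any gene in culture 1 of 17 h, had 441 and 472 CPM at 48 h, against 10115 and 10186 CPM at 17 h (log2 change -4.47 ± 0.10). aspf8 (AN5996), listed under the name of an A. fumigatus ribosomal allergen, ranked 10 at 17 h and had 741 and 789.9 CPM at 48 h, against 4488 and 4261 CPM at 17 h (log2 change -2.51 ± 0.11). fdh (AN6525), named for formate dehydrogenase, had 15753 and 16801 CPM at 48 h, against 9066 and 9617 CPM at 17 h (log2 change 0.80 ± 0.09).

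The median absolute log2 ratio between the 2 cultures of a harvest was 0.105 at 48 h and 0.0909 at 17 h. By the same ratio, 43 tested genes differed by over 2-fold between cultures at 48 h and 38 at 17 h. A small constant was added to each CPM before these ratios were taken, so differences at low levels are understated. Upstream open reading frames, left out of the tests, held 25 and 34 counts at 48 h, against 40 and 43 counts at 17 h.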
